A study of Mus musculus with 6 samples.

Results

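A set of 10 long noncoding RNA genes was examined in CT26 cells carrying a guide against Cdk10: the nuclear RNAs Malat1 and Neat1, the snoRNA host genes Gas5, Snhg1, Snhg12 and Snhg3, the imprinted transcripts Kcnq1ot1, H19 and Meg3, and Pvt1, the neighbour of Myc. They were chosen by symbol, and each matched 1 of the 57010 gene identifiers of the deposited count table. The sgCdk10 group held 3 libraries of CT26 cells with a guide against Cdk10, which encodes cyclin-dependent kinase 10. The sgControl group held 3 libraries of the same cells with a control guide. CT26 is a mouse colon carcinoma line, and both groups were sequenced from total RNA. The labels do not say whether either group was 1 clone or a pool, and they give neither the guide sequences nor any treatment.

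A long noncoding RNA acts without being translated, and many such RNAs stay in the nucleus. Malat1 collects in nuclear speckles, which store splicing factors, and Neat1 is the scaffold on which paraspeckles form. A snoRNA host gene is transcribed and spliced, and the snoRNAs that guide chemical modification of ribosomal RNA are then trimmed out of its introns, while the spliced remainder is often short-lived because nonsense-mediated decay removes it. Kcnq1ot1, H19 and Meg3 are each transcribed from 1 parental allele, and Kcnq1ot1 is known for silencing its neighbours in cis on the paternal chromosome.

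Malat1 and Kcnq1ot1 were higher in sgCdk10 cells, and Neat1 and Snhg1 were lower. Gas5, Snhg12 and Pvt1 did not pass the threshold, and Snhg3, H19 and Meg3 had too few counts to be tested. Of the 10 members 7 were tested, and 4 of them were called, meaning a Benjamini-Hochberg adjusted p under 0.05 in the quasi-likelihood test of edgeR, against 42.5% of all 13442 genes tested. Among tested genes annotated as long noncoding 21.5% were called, and among tested coding genes 47.6%. By direction, 2 members were higher, where the share over all genes was 22.1%, and 2 were lower, where it was 20.4%. The libraries of the groups did not overlap for 6 of the 7 tested members, against 51.3% of all genes. The median log2 fold change of the 7 members was -0.07, beside -0.0031 over all genes tested.

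Library totals lay between 17532202 and 19258309 counts, and 20989 to 21330 genes had at least 1 count. Levels are given as CPM, counts scaled to a common total on TMM-adjusted library totals and, where genes are compared with each other, as CPM per kilobase of merged exons (RPKM). The detection floor was set at 3 counts per library, which is 0.156 to 0.171 CPM and covers counting error only. The targeted gene had 204, 227 and 202 counts in the sgCdk10 libraries and 381, 344 and 365 in the sgControl libraries, and its log2 fold change was -0.82 (edgeR adjusted p = 8.5e-09). Of the epithelial markers, Epcam was at 0 in all libraries and Cdh1 at or near 0, whereas Krt18 and Krt20 were present. Krt8, Krt19, Cdx2 and Vil1 had at most 12, 4, 10 and 2 counts in any library and were too low to be tested. The summed level of the 8 epithelial markers was 57.5 to 58.9 CPM in sgCdk10 and 36.0 to 40.0 CPM in sgControl, nearly all of it Krt18 and Krt20. The 8 leukocyte markers summed to 12.6 to 13.5 CPM in sgCdk10 and 8.80 to 9.04 CPM in sgControl, nearly all of it Cd68, and Cd3e and Adgre1 were at 0. The fibroblast and endothelial markers summed to 1562 to 1583 CPM in sgCdk10 and 1359 to 1511 CPM in sgControl, mostly Col1a2. The part of these marker differences in the results was not tested. Whether replicate libraries stem from separate cultures is not stated, so the p-values reflect only how these 6 libraries vary, and that variation could be technical. Fewer cells with an RNA and less of it per cell cannot be told apart in such bulk samples.

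The sequences that mark these RNAs as members of their classes are shown first. Malat1 and the long form of Neat1 end without a poly(A) tail. RNase P cuts their 3′ end from a tRNA-like structure, and the new end is held by a triple helix in which an A-rich tract pairs with U-rich motifs. The elements of both genes were read from the GENCODE M21 transcripts on GRCm38, written as DNA on the minus strand, 91 bases at chr19:5795982-5796072 and 95 bases at chr19:5824708-5824802. Capitals mark the U-rich motifs and the A-rich tract.
Malat1 triple helix element: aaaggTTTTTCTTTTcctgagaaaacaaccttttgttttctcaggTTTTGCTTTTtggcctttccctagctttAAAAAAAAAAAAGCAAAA
Neat1 triple helix element: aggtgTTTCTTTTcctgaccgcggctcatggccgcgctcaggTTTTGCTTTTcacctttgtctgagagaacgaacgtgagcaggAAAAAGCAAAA
The marked stretches were located in both RNAs by the same search patterns, so the letters in those patterns were bound to be shared. This covers the whole second U-rich motif, the CTTTT of the first and the GCAAAA end of the A-rich tract.

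Host genes of snoRNAs often belong to the TOP class, whose transcripts begin with a run of pyrimidines that ties their translation and stability to growth signals. Windows of 50 bases around the annotated RefSeq starts (GRCm38.p6) are shown for the 4 hosts, with capitals for the longest run of C and T within a few bases of the start. For a gene with several annotated starts, the start with the longest run is the one shown. The windows lie at chr1:161035146-161035195 on the plus strand for Gas5, chr19:8723467-8723516 on the plus strand for Snhg1, chr4:132308658-132308707 on the plus strand for Snhg12, and chr4:132353657-132353706 on the minus strand for Snhg3.
Gas5: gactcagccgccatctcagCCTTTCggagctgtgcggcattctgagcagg
Snhg1: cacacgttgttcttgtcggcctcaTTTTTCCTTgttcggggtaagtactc
Snhg12: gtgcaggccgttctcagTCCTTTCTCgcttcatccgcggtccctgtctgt
Snhg3: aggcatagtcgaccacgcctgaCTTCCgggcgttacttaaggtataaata
The runs were 6, 9, 9 and 5 bases long and began at -1, 4, -3 and 2 bases from the annotated start. In Snhg1 and Snhg3 the run thus lay after the annotated first base. A gene was counted as having a run if any of its annotated starts had one. A run of at least 6 bases was present in 3 of these 4 genes, in 4 of 14 other noncoding hosts and in 5 of 22 protein-coding hosts in the RefSeq promoter table, against 15.9% of its 27025 genes. Many of the protein-coding hosts are ribosomal protein genes of the TOP class, so lack of a run here does not place a gene outside it. The match describes the annotated start only, and starts used in CT26 cells were not measured.

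Malat1 (ENSMUSG00000092341, chr19:5795690-5802672 on the minus strand of GRCm38, 1 merged exon) was the most abundant member. It had 567, 581 and 558 CPM in the sgCdk10 libraries, against 467, 450 and 466 CPM in the sgControl libraries. Every sgCdk10 library lay above every sgControl library, and the spread within each group was small beside the gap. The log2 fold change was 0.30 (SE 0.03, 95% interval 0.25 to 0.36; edgeR adjusted p = 2.4e-09). Per kilobase its level averaged 81.5 ± 1.64 RPKM in sgCdk10 and 66.0 ± 1.36 RPKM in sgControl (SD, n = 3 each). The labels do not say whether libraries were made by poly(A) selection or by ribosomal RNA depletion. Other RNAs that lack a poly(A) tail or carry only a short one also took larger shares: genes of the histone clusters took 0.00299 to 0.00315% of the counts in sgCdk10 and 0.00208 to 0.00213% in sgControl, and mitochondrial ribosomal RNA took 0.111 to 0.117% in sgCdk10 and 0.0902 to 0.105% in sgControl. Their part in the Malat1 difference was not tested.

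Neat1 (ENSMUSG00000092274, chr19:5824708-5845478 on the minus strand, 1 merged exon), which lies 22035 bases from Malat1 in the same orientation, differed in the opposite direction. Its libraries had 142, 137 and 124 CPM in sgCdk10, against 185, 162 and 163 CPM in sgControl. The groups did not overlap, but sgControl replicate 1 stood above its 2 companions and sgCdk10 replicate 3 below its own. Neat1 fell by 0.34 on the log2 scale (SE 0.07, 95% interval -0.52 to -0.16; edgeR adjusted p = 0.012). Without sgControl replicate 3, the library that the second principal component set apart, the log2 fold change was -0.37 and the call was lost (edgeR adjusted p = 0.064). A short polyadenylated and a long form of Neat1 share their 5′ part, and the table counts them together. Its level was 6.47 ± 0.46 RPKM in sgCdk10 and 8.19 ± 0.626 RPKM in sgControl (SD, n = 3 each).

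**Figure D1:**
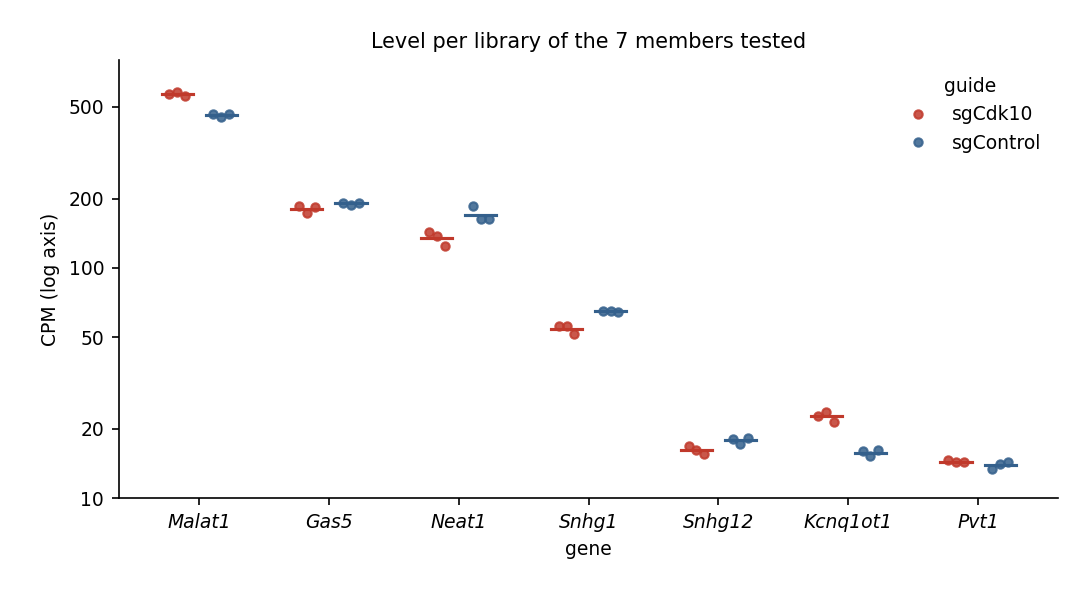
Level of the 7 tested members in each library, in CPM on a log axis, with sgCdk10 (red) left of sgControl (blue); points are libraries and bars are group means. Malat1 and Kcnq1ot1 lie higher in all 3 sgCdk10 libraries, Neat1 and Snhg1 lie lower, and the groups overlap only for Pvt1.

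Because Malat1 and Neat1 moved apart, their ratio within a library, which no scaling between libraries can change, gives the pattern directly. The ratios given here were not planned and were added after the values had been seen. There were 3.98, 4.24 and 4.51 Malat1 counts for each Neat1 count in the sgCdk10 libraries, against 2.52, 2.78 and 2.86 in the sgControl libraries. The means were 4.24 ± 0.264 in sgCdk10 and 2.72 ± 0.175 in sgControl (SD, n = 3 each), 1.56-fold apart, with no overlap between the groups. An exact two-sided permutation test gave p = 0.1, which is the smallest value that 3 libraries against 3 allow. Malat1 was higher and Neat1 lower in every sgCdk10 library, so the ratio had to separate the groups. The p-value was fixed by that and adds no support. Malat1 over Gas5 stood at 3.15 ± 0.179 in sgCdk10 and 2.42 ± 0.0232 in sgControl (n = 3 each). It too had to separate, because Gas5 was lower in every sgCdk10 library. Gas5 over Snhg1 stood at 3.33 ± 0.229 in sgCdk10 and 2.94 ± 0.0481 in sgControl, 1.13-fold apart, each with the same exact permutation p = 0.1 (n = 3 each).

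**Figure D2:**
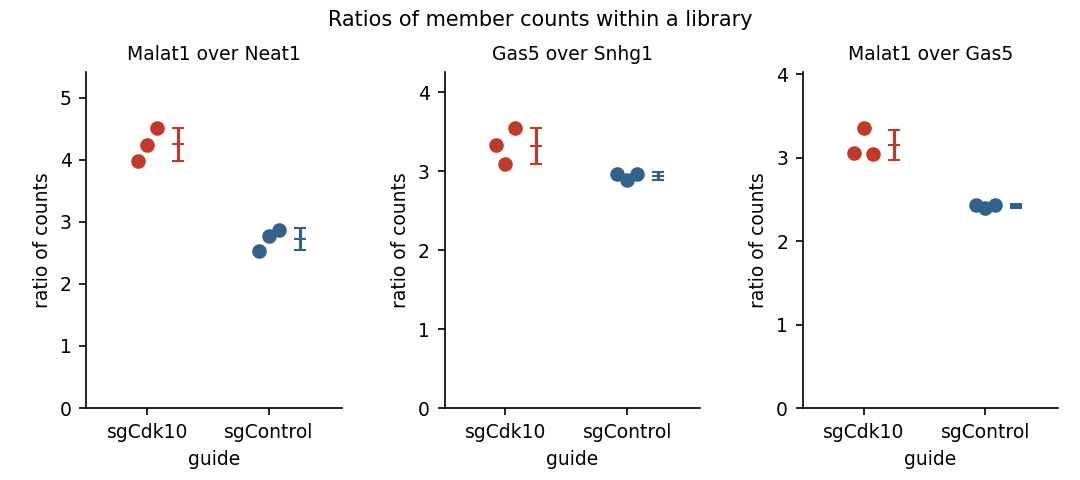
Ratio of the counts of 2 members within each library, on axes that start at 0, with sgCdk10 left of sgControl; points are libraries and bars the mean ± SD. The Malat1 to Neat1 ratio lies between 3.98 and 4.51 in sgCdk10 and between 2.52 and 2.86 in sgControl.

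Proteins that build the 2 nuclear bodies were counted in lists of known components. All 18 paraspeckle proteins were tested, and 4 were higher and 9 lower, with a median log2 fold change of -0.08. The share called was 72.2%, against 47.6% of coding genes and 42.5% of all genes. Taf15, an RNA-binding protein of the FET family, fell by 0.38 on the log2 scale to 167 CPM in sgCdk10, against 217 CPM in sgControl (edgeR adjusted p = 2.5e-10), and its relative Ewsr1 fell by 0.18. Sfpq, a protein that paraspeckles need to form, rose by 0.19 to 405 CPM in sgCdk10, against 355 CPM in sgControl (edgeR adjusted p = 7.8e-06), and Rbm14 rose by 0.23. A further pair of core proteins was picked after their values had been seen: Nono, the partner of Sfpq, had a log2 fold change of -0.03 and was not called, and Pspc1 fell by 0.22 (edgeR adjusted p = 5.0e-04). The direction of Neat1 was shared by 9 of its 18 listed proteins and opposed by 4.

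Of 15 nuclear speckle proteins and factors that process the Malat1 end, 3 were higher and 3 lower, with a median log2 fold change of -0.06. The share called was 40.0%, against 47.6% of coding genes. An offset for GC content and transcript length gave 1 higher and 5 lower. Srsf3, a splicing factor of the SR family, fell by 0.36 to 245 CPM in sgCdk10, against 314 CPM in sgControl (edgeR adjusted p = 1.1e-09). Son, a core speckle protein, rose by 0.13. The RNase P subunits Pop1 and Rpp30 differed in opposite directions, with log2 fold changes of 0.26 and -0.21.

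Gas5 (ENSMUSG00000053332, chr1:161034422-161038539, plus strand), a TOP host whose RNA can bind the glucocorticoid receptor, was the most abundant of the hosts. It had 186, 173 and 184 CPM in the sgCdk10 libraries, against 192, 188 and 192 CPM in the sgControl libraries. The sgCdk10 libraries all lay lower, yet sgCdk10 replicates 1 and 3 came within a few CPM of the sgControl range. The log2 fold change of -0.07 (SE 0.03, 95% interval -0.14 to -0.01) did not pass the threshold (edgeR adjusted p = 0.061). Without sgControl replicate 3 it was called at the same size, with edgeR adjusted p = 0.028, whereas without sgCdk10 replicate 2 the log2 fold change was -0.04 (edgeR adjusted p = 0.35). Nr3c1, the glucocorticoid receptor itself, picked after its value had been seen, fell by 0.13 to 145 CPM in sgCdk10, against 159 CPM in sgControl (edgeR adjusted p = 0.0032).

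Snhg1 (ENSMUSG00000108414, chr19:8723475-8726443, plus strand) carries a cluster of box C/D snoRNA genes in its introns. Its level was 55.7, 56.0 and 51.8 CPM in the sgCdk10 libraries, against 64.7, 65.2 and 64.5 CPM in the sgControl libraries. The sgControl libraries lay within 1 CPM of each other and above all sgCdk10 libraries. Snhg1 fell by 0.25 on the log2 scale (SE 0.04, 95% interval -0.34 to -0.16; edgeR adjusted p = 4.6e-05).

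Snhg12 (ENSMUSG00000086290, chr4:132308623-132311024, plus strand), a smaller host, had 16.8, 16.2 and 15.6 CPM in sgCdk10, against 18.0, 17.1 and 18.3 CPM in sgControl. The groups did not overlap, with the lowest sgControl library close to the highest sgCdk10 one. Its log2 fold change of -0.14 (SE 0.07, 95% interval -0.28 to 0.00) did not pass the threshold (edgeR adjusted p = 0.11). On the RPKM scale the hosts ranked as Gas5, Snhg1 and Snhg12, at 48.1, 18.4 and 6.74 RPKM in sgCdk10 and at 50.7, 21.8 and 7.41 RPKM in sgControl. These steps were many times the SD within a group.

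Snhg3 (ENSMUSG00000085241, chr4:132348014-132353686, minus strand) had 0, 0 and 1 counts in the sgCdk10 libraries and 0 in each sgControl library, under the floor of 3 counts. Of its 986 exon bases 86.3% also lie in exons of other genes, with Gm17300 on the opposite strand covering 71.5% and Rcc1 and Snora73a overlapping it on its own strand. The strand setting of the counting is not given in the sources used here, and how reads shared by genes were treated is not given either. The effect of that overlap on the count of Snhg3 was not tested. For the other hosts the overlap was 17.8% of exon bases in Gas5, 20.9% in Snhg1 and 19.6% in Snhg12, in each case with their own snoRNA genes.

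The rows of the snoRNA and microRNA genes themselves held no counts. All 26 such rows inside the members were at 0 in all 6 libraries: 9 in Gas5, 8 in Snhg1, 4 in Snhg12, 2 in Snhg3, 2 in Meg3, and the microRNA Mir675 in H19. Of 1065 snoRNA rows in the table, 861 were at 0. Most of the 26 rows lie wholly within merged exons of their member, and how reads shared by genes were treated is not given. The 0 counts of these rows thus do not show that the small RNAs were absent. The counts above are those of the member rows and say nothing about the mature snoRNAs.

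Other genes of the snoRNA pathway were read beside them. Of 17 other noncoding snoRNA hosts listed, 12 were tested, and 0 were higher and 4 lower, with a median log2 fold change of -0.07. That was 33.3% called, against 21.5% of tested long noncoding genes and 42.5% of all genes. Without sgCdk10 replicate 1 or without sgCdk10 replicate 2, 2 of them were called, and with the GC and length offset 1 was higher and 3 lower. Snhg5 fell by 0.34 to 38.3 ± 2.19 CPM in sgCdk10, against 48.7 ± 2.11 CPM in sgControl (SD, n = 3 each; edgeR adjusted p = 6.2e-06), the largest change in the list. Snhg17, Snhg8 and Dancr fell by 0.19, 0.13 and 0.22. Zfas1 and Snhg15, abundant or moderate hosts picked after their values had been seen, had log2 fold changes of -0.03 and 0.00 and were not called.

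**Figure D3:**
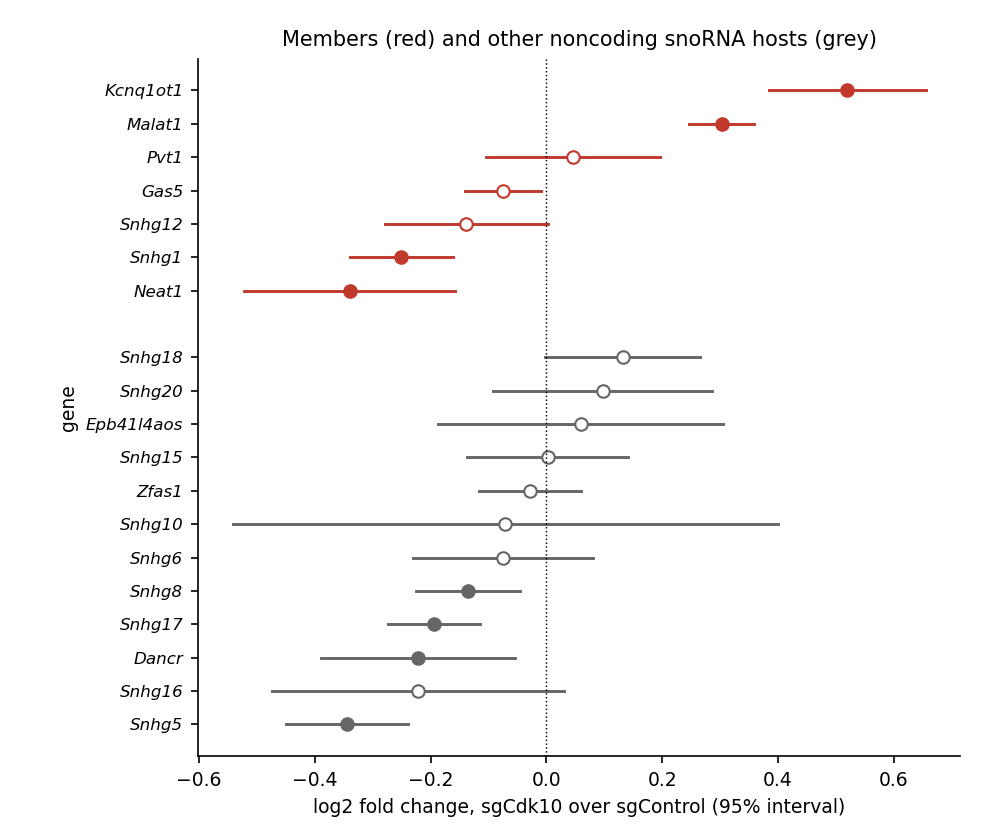
Log2 fold change of the 7 tested members (red) and of the 12 other tested noncoding snoRNA hosts (grey), sgCdk10 over sgControl, with 95% intervals; filled points passed an edgeR adjusted p of 0.05. Kcnq1ot1 and Malat1 stand to the right of 0, Neat1 and Snhg1 to the left, and no grey point to the right of 0 is filled.

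Protein-coding snoRNA hosts, many of them ribosomal protein genes of the TOP class, counted 4 higher and 15 lower of 31 tested. That was 61.3% called, against 47.6% of coding genes, with a median log2 fold change of -0.07. Rps12 fell by 0.25, and Ncl, which encodes the nucleolar protein nucleolin, fell by 0.18. Hspa8, a heat shock cognate chaperone gene, went the other way and rose by 0.43 (edgeR adjusted p = 9.0e-12). Among 17 snoRNP proteins and assembly factors, 1 was higher and 5 were lower, 35.3% called, with a median of 0.00, and with the GC and length offset 3 were higher and 6 lower. Gar1 and Nhp2, core proteins of the H/ACA particles that guide pseudouridylation, fell by 0.19 and 0.17, and the assembly factor gene Pih1d1 fell by 0.27, whereas Naf1, an H/ACA assembly factor, rose by 0.16. Fibrillarin (Fbl), the methyltransferase of box C/D particles, picked after its value had been seen, fell by 0.09 (edgeR adjusted p = 0.029).

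A pair of decay pathways acts on host and nuclear RNAs. Of 14 nonsense-mediated decay factors, 1 was higher and 7 lower, with a median log2 fold change of -0.09. That was 57.1% called, against 47.6% of coding genes. With the GC and length offset 0 were higher and 8 lower. Smg9, a regulator of the kinase SMG1, fell by 0.50 to 51.1 CPM in sgCdk10, against 72.3 CPM in sgControl (edgeR adjusted p = 6.8e-09). Smg5 fell by 0.23, and the exon junction complex genes Eif4a3 and Casc3 fell by 0.16 and 0.19. The number called was 5 when sgCdk10 replicate 1, sgCdk10 replicate 2 or sgControl replicate 1 was left out. Of 17 genes of the nuclear exosome and its adaptors, 3 were higher and 5 lower, with a median of -0.08. That was 47.1% called, close to the 47.6% of coding genes. With the GC and length offset 2 were higher and 6 lower. Here the core subunit genes Exosc8 and Exosc5 fell by 0.22 and 0.28, while the adaptor Zfc3h1 and the helicase Mtrex rose by 0.27 and 0.15.

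Kcnq1ot1 (ENSMUSG00000101609, chr7:143203458-143296549 on the minus strand, 1 exon of 93092 bases within Kcnq1 on the opposite strand) had the largest fold change of the members. It had 22.7, 23.6 and 21.5 CPM in the sgCdk10 libraries, against 16.0, 15.2 and 16.1 CPM in the sgControl libraries. The groups were far apart, and each varied by little. Kcnq1ot1 rose by 0.52 on the log2 scale (SE 0.07, 95% interval 0.38 to 0.66; edgeR adjusted p = 6.4e-07). Spread over its length the level was low, at 0.243 ± 0.0114 RPKM in sgCdk10 and 0.169 ± 0.0052 RPKM in sgControl (SD, n = 3 each), the lowest of the 7 tested members on this scale. Its transcript was the 4th longest of all genes tested, whose median was 3078 bases. With an offset for GC content and length its log2 fold change was 0.35, still past the threshold.

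Kcnq1ot1 is known for silencing a cluster of genes on distal chromosome 7, and these were read with it. Kcnq1, which contains it, was at 0 in all libraries. Of 2 further genes of the cluster, named after their values had been seen, Cdkn1c was at 0 too and Phlda2 averaged 0.0184 CPM in sgCdk10 and 0 in sgControl, under the floor. Slc22a18, an organic cation transporter gene, had 0.828, 1.36 and 0.986 CPM in sgCdk10, against 0.620, 0.565 and 0.386 CPM in sgControl. The groups did not overlap, but no library had more than 24 counts. Its log2 fold change was 1.01 (SE 0.33; edgeR adjusted p = 0.016). Tssc4, a cofactor of small nuclear RNP assembly, fell by 0.15, and Cd81 and Nap1l4, at the edges of the domain, rose by 0.20 and 0.12. In the sgCdk10 cells, then, the measured genes around Kcnq1ot1 did not share 1 direction.

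The promoters of the 2 members that were higher are printed because they share a string. Of the 10 members 7 were in the RefSeq promoter table (GRCm38.p6), while Neat1, H19 and Pvt1 were not matched. The windows of 300 bases are chr19:5802623-5802922 for Malat1 and chr7:143296498-143296797 for Kcnq1ot1, both on the minus strand. Capitals mark TGACGTG, found on the strand shown in Malat1 and as CACGTCA, its reverse complement, in Kcnq1ot1, 45 and 44 bases before the start.
Malat1 promoter: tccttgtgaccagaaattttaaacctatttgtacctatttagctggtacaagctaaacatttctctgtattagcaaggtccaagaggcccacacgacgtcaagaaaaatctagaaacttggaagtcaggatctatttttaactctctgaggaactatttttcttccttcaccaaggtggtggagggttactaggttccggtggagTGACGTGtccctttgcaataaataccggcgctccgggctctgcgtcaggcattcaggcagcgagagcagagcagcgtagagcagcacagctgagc
Kcnq1ot1 promoter: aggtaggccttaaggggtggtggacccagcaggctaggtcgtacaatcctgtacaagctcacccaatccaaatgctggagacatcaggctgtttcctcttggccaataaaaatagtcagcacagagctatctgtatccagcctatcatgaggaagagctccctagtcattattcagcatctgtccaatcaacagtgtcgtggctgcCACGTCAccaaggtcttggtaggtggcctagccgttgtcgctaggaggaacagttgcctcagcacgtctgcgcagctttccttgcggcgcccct
The string was picked after both promoters had been read, so its presence in both is a description. It is in 2.01% of 32851 promoters on either strand. The shorter ACGTG, which overlaps it, is in 19.6% of promoters and also in that of Snhg1. CACGTG is in 7.15% of promoters and in 0 of the 7 members, and CCGGAAGT is in 3.89% and in that of Snhg3. No binding of any factor was measured.

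H19 (ENSMUSG00000000031, chr7:142575529-142578143, minus strand), a growth-restraining imprinted RNA, and Meg3 (ENSMUSG00000021268, chr12:109541001-109571726, plus strand), a maternally expressed RNA with tumour-suppressive roles, had 0 counts in all 6 libraries. With a floor of 3 counts this allows at most 0.171 CPM in any library. Their imprinted partners Igf2, a growth factor, and Dlk1, a transmembrane regulator of differentiation, were at 0 too. Of 29 other imprinted genes, 13 were at 0 in all libraries and 10 were tested. Of the 10 tested, 5 were higher and 2 lower, with a median log2 fold change of 0.17. The share called was 70.0%, against 42.5% of all genes tested. Impact, a regulator of translation that is imprinted in mouse, fell by 0.61 to 92.0 CPM in sgCdk10, against 141 CPM in sgControl (edgeR adjusted p = 3.3e-13). Igf2r, the decoy receptor that clears IGF2, rose by 0.27 (edgeR adjusted p = 2.1e-05).

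Pvt1 (ENSMUSG00000097039, chr15:62037986-62378096, plus strand, 21 merged exons) is a long host of microRNAs next to Myc, with which it is often co-amplified in tumours. It had 14.6, 14.3 and 14.3 CPM in the sgCdk10 libraries, against 13.4, 14.1 and 14.3 CPM in the sgControl libraries. The groups overlapped, the only such case among the tested members. Its log2 fold change was 0.05 (SE 0.07, 95% interval -0.10 to 0.20; edgeR adjusted p = 0.65), an interval that leaves room for a small change in either direction. Myc, 47611 bases away, had 175 CPM in sgCdk10 and 170 CPM in sgControl, a log2 fold change of 0.05 that was not called either (edgeR adjusted p = 0.43). Fam49b, the nearest tested coding gene on the other side, had a log2 fold change of -0.03 and was not called.

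Neighbouring coding genes were read at every locus, from the nearest tested one on each side and any that overlap. Snhg1 and Slc3a2, the heavy chain of amino acid transporters, start 105 bases apart on opposite strands, and both were lower. Slc3a2 had 334, 328 and 328 CPM in sgCdk10, against 454, 456 and 446 CPM in sgControl, with no overlap, and fell by 0.45 (SE 0.03; edgeR adjusted p = 9.6e-13). On the other side Wdr74, a nucleolar assembly factor, had a log2 fold change of -0.01 and was not called.

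Rcc1, the nuclear exchange factor of the GTPase Ran, shares exon bases with Snhg3 and fell by 0.37 to 51.1 CPM in sgCdk10, against 65.9 CPM in sgControl (edgeR adjusted p = 1.9e-06). Next to Snhg12, Taf12 fell by 0.15, while Trnau1ap, a selenocysteine tRNA binding protein gene, was not called. At Gas5, Zbtb37, which overlaps its 5′ end on the opposite strand, and Rc3h1 both rose by 0.32. Frmd8, 4223 bases from Neat1, rose by 0.27 (edgeR adjusted p = 1.0e-04). At the loci of the undetected members, Mrpl23 and Tspan32 near H19 and Wdr25 near Meg3 were not called, and Ppp2r5c near Meg3 rose by 0.11. The direction of a called member was shared by a called neighbour at the loci of Malat1, Snhg1 and Kcnq1ot1 and opposed by one at those of Neat1 and Kcnq1ot1.

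**Figure D4:**
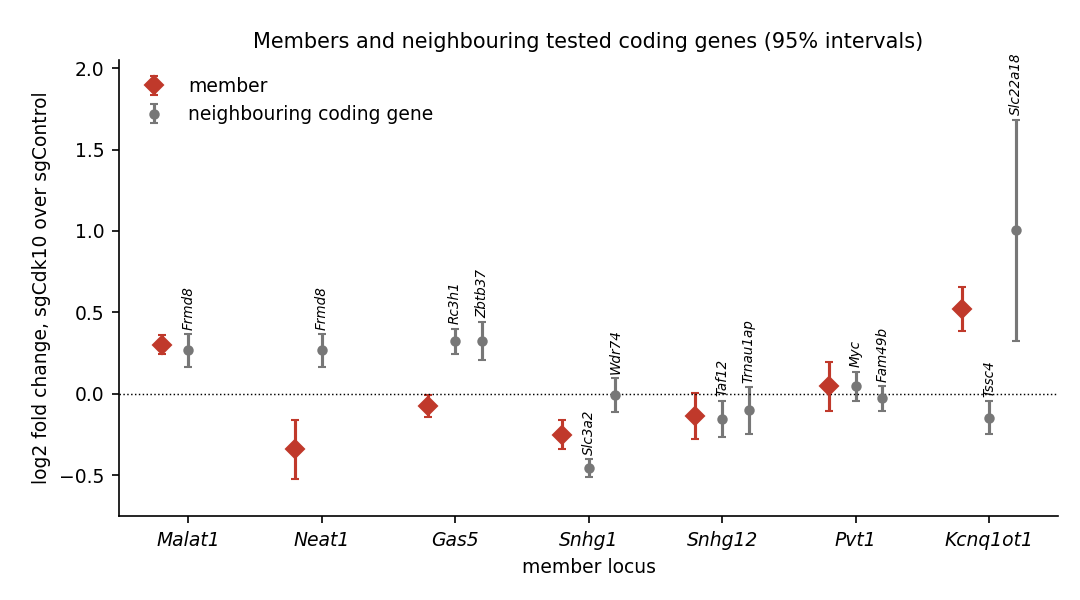
Log2 fold change of each tested member (red diamonds) and of the nearest tested coding neighbours named in the text (grey circles), sgCdk10 over sgControl, with 95% intervals. Snhg1 and Slc3a2 both lie under 0, Neat1 and Frmd8 lie on opposite sides of it, and the interval of Slc22a18 is the widest.

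Proteins known to bind a member RNA counted 4 higher and 4 lower of 12, with a median log2 fold change of -0.05. The share called was 66.7%, against 47.6% of coding genes. Under the GC and length offset 2 were higher and 5 lower. Ctcf, the insulator protein of imprinted loci, fell by 0.30, and Ezh2, the catalytic subunit of PRC2, fell by 0.17. Igf2bp2, a binder of H19 and many mRNAs, rose by 0.33 and the RNA-stabilising protein gene Elavl1 by 0.24. With sgCdk10 replicate 1 or replicate 2 left out, 5 of the list were called.

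The 7 members that passed the count filter were set beside the other noncoding genes tested. Long noncoding biotypes held 13112 identifiers, of which 1175 were tested with a median of 1.41 CPM, beside 37.2 CPM for coding genes. Of these 253 were called, 21.5%, 103 higher and 150 lower, whereas 47.6% of 11082 coding genes were called. The median absolute log2 fold change was 0.29 for the noncoding genes, beside 0.14 for coding genes. The part of the lower counts in the share called and in the size of the fold changes was not tested. Among 24 other well-known noncoding and structural RNAs 14 were tested and 3 were higher and 5 lower, 57.1% called, with a median of -0.12. Lncpint, a p53-regulated RNA, rose by a log2 fold change of 1.15 to 7.53 ± 0.628 CPM in sgCdk10, against 3.40 ± 0.318 CPM in sgControl (SD, n = 3 each; edgeR adjusted p = 1.0e-07). Dnm3os, the host of miR-199a and miR-214, rose by 0.79 to 11.6 ± 0.839 CPM in sgCdk10, against 6.72 ± 0.995 CPM in sgControl (edgeR adjusted p = 1.3e-06). Dleu2, the host of miR-15a and miR-16-1, fell by 0.52, and Firre, an X-linked nuclear organiser, fell by 0.24. The structural RNAs Rmrp and Rpph1, both transcribed by RNA polymerase III and named after their values had been seen, were at 0 in all libraries.

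**Figure D5:**
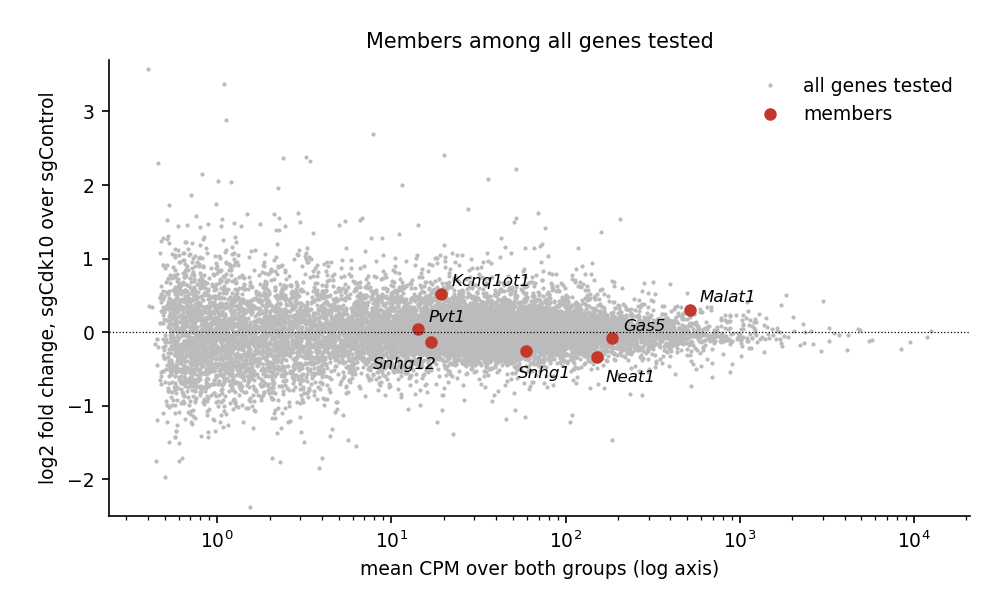
Log2 fold change, sgCdk10 over sgControl, against mean CPM on a log axis for all 13442 genes tested (grey), with the 7 tested members in red. The members lie between -0.34 for Neat1 and 0.52 for Kcnq1ot1, while all genes run from -2.38 to 3.58.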

How the data were processed

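The table deposited by the authors holds raw, unnormalized counts of 6 libraries under Ensembl identifiers. Per the submitters' processing notes, the build was mm10 and the tools included featureCounts 2.0.3, HISAT2 2.2.1 and DESeq2 1.40.2. Their settings, annotation release and strand option are not given in the sources. Symbols and coordinates came from GENCODE M21 (GRCm38), which named 52081 of 57010 identifiers, and start-site sequences from RefSeq. The unnamed ones took no more than 0.236% of any library's counts.

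Genes were filtered by filterByExpr (minimum count 10, total 15), scaled by TMM and tested in R 4.3.3 with edgeR 4.0.16 by the robust quasi-likelihood test, with group as the only term and Benjamini-Hochberg adjustment over all 13442 genes at 0.05. F statistics and fold changes gave the standard errors and 95% intervals. RPKM divides by merged exon length, which for the hosts includes retained introns. Groups came from the titles. The scripts were tested on simulated counts.

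Members and lists were chosen with earlier results of these data known. Named genes are the members, Cdk10, the 4 smallest p per list, the nearest tested coding genes, Myc, Igf2 and Dlk1; others are marked as picked after their values were seen. Some genes that this rule names are not reported here. Norad, Oip5os1 and Snhg16 were matched under older symbols; Snhg4, Snhg7, Rn7sk and Terc were not analysed here. Alternatives were other size factors, library totals, DESeq2 1.42.0, limma-voom (limma 3.58.1), no filter, a 1 CPM filter, non-robust dispersions, a GC and length offset (loess, span 0.5), a replicate block and each library left out.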

Additional observations from a re-analysis of the deposited data

How the results depend on the processing

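In each of the 15 alternatives 4 members were called, 2 in each direction, and no member changed sign. The exception in identity was sgControl replicate 3: without it Neat1 lost its call (log2 fold change -0.37, adjusted p = 0.064) and Gas5 gained one (-0.07, adjusted p = 0.028). Across alternatives the log2 fold change of Malat1 ran from 0.24 to 0.32, of Neat1 from -0.47 to -0.28, of Snhg1 from -0.27 to -0.21, and of Kcnq1ot1 from 0.35, under the GC and length offset, to 0.56. All genes called numbered 5717, and 4791 to 6056 with 1 library left out, 4179 with DESeq2 and 5887 with the GC and length offset, which gave 45.3% of calls as higher where the main design gave 52.0%. With the replicate number as a block 5481 genes and 4 members were called. With that block the log2 fold change of Neat1 was -0.34 (SE 0.036, edgeR adjusted p = 4.8e-07). Same-numbered libraries showed little shared deviation over all genes tested (correlations 0.03, -0.06 and -0.10). Such correlations cannot show whether the numbers pair the libraries, because a shared effect on few genes would not be seen, and the labels do not say. DESeq2 called 2 of the other noncoding hosts, 5 decay factors, 5 exosome genes, 4 imprinted genes and 5 RNA-binding partners. Low counts limit Snhg3, H19, Meg3 and Slc22a18.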

Other observations

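Several long noncoding genes outside the lists were among those with large changes, and were picked for that after their values had been seen. Mirt1 rose to 8.58 ± 1.32 CPM in sgCdk10, against 4.66 ± 0.714 CPM in sgControl, a log2 fold change of 0.88 (SD, n = 3 each; edgeR adjusted p = 1.0e-05). Junos, which is divergent from the transcription factor gene Jun, had 5.76 ± 0.233 CPM in sgCdk10 and 3.52 ± 0.246 CPM in sgControl, a log2 fold change of 0.71. In the other direction Ttc39aos1 fell by 0.72 to 9.68 ± 0.748 CPM in sgCdk10, against 15.9 ± 0.695 CPM in sgControl (edgeR adjusted p = 1.4e-07), and Rab10os fell by 0.50. The names of Junos, Ttc39aos1 and Rab10os mark them as opposite-strand transcripts of coding genes, and with the strand of the counting not given their reads cannot be told apart from those of their partners with certainty.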
